A study of Homo sapiens with 2 samples.

Results

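The genes described here encode the coats, translocation machinery and tethers of vesicle traffic: COPI, COPII, clathrin, the adaptor complexes AP-1 to AP-4, the Sec61 translocon, the TRAPP tethers and the vacuolar protein sorting (VPS) proteins. A row of the deposited table was a member if its symbol was one of the COP coat symbols, began with SEC, TRAPPC or VPS followed by a digit, had the pattern of an adaptor subunit (AP1 to AP4 with a subunit letter and a digit), or was CLTA, CLTB, CLTC or ARCN1. This gave 99 of the 10836 rows of the table, and the rule reads names only, although the list was set with earlier results of these data known. The names also took in some relatives outside vesicle coats, such as VPS72, which belongs to chromatin complexes.

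The study looked for mRNAs bound by CNBP, a nucleic acid-binding protein with zinc knuckles, in HCT116 cells, a human line from a colon carcinoma. Cells grown in medium with serum were crosslinked with ultraviolet light and sonicated, and a CNBP antibody on beads was used to pull down the protein with its RNA. The 2 groups were the CNBP RIP (RNA of that precipitate) and the input, with 1 library each, and the labels name no treatment besides the crosslinking. A library from a control antibody was not used here, so what the beads recover without CNBP is not measured in these data. With 1 library per group there is no spread, no test and no replicate check, and a difference compares these libraries only.

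Proteins that leave the cell or reach its membranes enter the endoplasmic reticulum through the Sec61 channel. COPII coats bud vesicles from the reticulum towards the Golgi, COPI coats return them, and clathrin with its adaptors forms carriers at the Golgi, endosomes and plasma membrane. Tethers such as TRAPP, HOPS and GARP capture incoming vesicles before they fuse, retromer retrieves receptors from endosomes, and ESCRT sorts other receptors into the endosome's interior. Many of these machines join large scaffold subunits with smaller ones, whose mRNAs come from separate genes.

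Levels were FPKM, fragments scaled to transcript length and to the mapped total, and so are levels per length. The depth behind them is unknown. In bulk RNA, fewer cells that hold an mRNA and less of it per cell cannot be told apart. The FPKM of all rows summed to 109684 in the CNBP RIP and 214387 in the input, with a median of 2.78 FPKM in the CNBP RIP and 1.95 in the input, and 1050 rows were listed at 0 in the CNBP RIP against 181 in the input. Every row had at least 0.5 FPKM in 1 of the libraries, so a gene low in both had no row. Among markers of colon epithelium 5 of 7 had a row, led by KRT18 with 199 FPKM in the CNBP RIP and 564 in the input, whereas VIL1 and CDX1 had none. Of 5 markers of blood, stromal and endothelial cells 1 had a row, COL1A1, with 4.92 FPKM in the CNBP RIP and 0.199 in the input.

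The ratio used throughout was log2(CNBP RIP FPKM + 1) minus log2(input FPKM + 1), so a positive value means a higher level in the CNBP RIP. A gene is called higher or lower at a log2 ratio of 0.58 (about 1.5-fold), and 4-fold changes lie at a log2 ratio of 2. These are rules of size and not tests. The +1 shrinks the ratio of genes with low FPKM.

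The 99 genes were split, and the split went with the size class of the subunit. These classes were set by hand with earlier results of these data known. At 4-fold, 8 members (8.08%) were higher in the CNBP RIP, against 12.5% of all rows, and 19 (19.2%) were lower, against 13.5%. At 1.5-fold, 42 members (42.4%) were higher, against 42.6% of all rows, and 33 (33.3%) were lower, against 34.7%. The median log2 ratio was 0.32 over the members and 0.28 over all rows. Thus the members as a whole lay close to the background, while single ratios ran from -4.83 for TRAPPC1 to 3.29 for CLTC.

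The 8 members at least 4-fold higher were CLTC, AP3D1, SEC16A, VPS41, COPA, VPS13D, ARCN1 and SEC23A, of which 7 encode a large subunit. The 19 at least 4-fold lower included 14 small subunits, 3 medium ones and no large one. The 4-fold rule was passed by SEC23A at 2.11 and missed by VPS18 at 1.83. On the lower side it was passed by AP2M1 at -2.05 and missed by TRAPPC3 at -1.62. No member was listed at 0 in the input, and 4 were listed at 0 in the CNBP RIP: VPS33A with 1.80 FPKM in the input, VPS37A with 0.883, SEC61A2 with 0.821 and TRAPPC2B with 5.06. No fold is given for these, and they enter the counts only through the +1 in the ratio defined above.

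The scale of the libraries moves all of these counts. When each library was rescaled to the mean of the sums, a shift of 0.97 on the log2 scale, the median of all rows lay at 0.85 and that of the members at 0.92. On that scale 23 members passed 4-fold on the higher side, against 22.6% of all rows, and 10 on the lower, against 8.18%. Rescaling raises every ratio, so it can only add genes on the higher side and remove them on the lower. All 19 members at least 4-fold lower stayed below 0. The sign turned from negative to positive for 10 members, namely AP1G2, CLTA, SEC22A, SEC31A, SEC63, TRAPPC5, TRAPPC6B, VPS33B, VPS37D and VPS9D1.

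**Figure D1:**
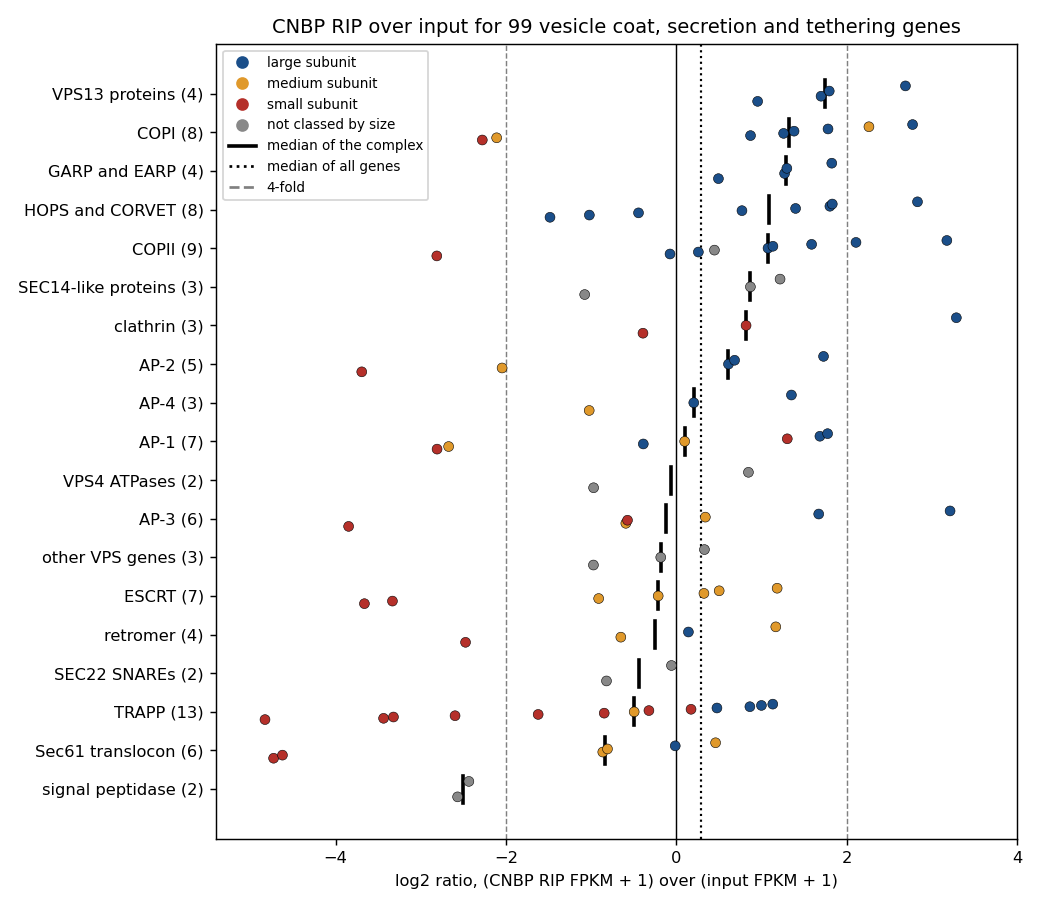
Log2 ratio of the CNBP RIP over the input (horizontal axis, from FPKM plus 1, 1 library each) for the 99 members, 1 point per gene, in rows by complex with the number of members. Points are coloured by subunit size, bars mark the median of a complex, the dotted line the median of all rows (0.28) and dashed lines 4-fold. Large subunits lie mostly right of 0 and small ones mostly left, from TRAPPC1 at -4.83 to CLTC at 3.29.

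Because the study's methods searched the precipitated RNA for G-rich motifs, GGAG among them, the start of each member's transcript was searched for these letters. The search covered the first 50 bases after the RefSeq transcription start on the transcribed strand, over every start given for a gene. Of the 8 members at least 4-fold higher, 7 matched the RefSeq table by symbol, and 6 of them held GGAG. Their matches are shown with GGAG in capitals, from 5′ to 3′, at positions of build GRCh38.p14.
CLTC, chr17:59619897-59619916, plus strand: ccgtttccGGAGtctgcgct
SEC16A, chr9:136483744-136483763, minus strand: gaatgcgaGGAGcgcgcccg
VPS41, chr7:38909149-38909168, minus strand: gaagcagaGGAGcaggtaaa
COPA, chr1:160343228-160343247, minus strand: gctgacgtGGAGgcgtccga
VPS13D, chr1:12230049-12230068, plus strand: gccattgaGGAGcggcgggg
SEC23A, chr14:39103190-39103209, minus strand: ggccgggcGGAGgtcttcgc

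The same letters stood at the start of members far lower in the CNBP RIP, and 4 of those matches are shown beside them.
TRAPPC1, chr17:7931981-7931999, minus strand: aaggggcGGAGctccgtgg
AP3S1, chr5:115842504-115842523, plus strand: ttagcccgGGAGgaggaaga
AP2S1, chr19:46850275-46850294, minus strand: ttgcaggtGGAGaggggatg
SEC13, chr3:10321084-10321103, minus strand: cgccgccgGGAGctgccacg

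In this window GGAG was found for 41 of 83 matched members (49.4%), against 51.8% of 8370 matched genes of the table. The members at least 4-fold higher had it in 6 of 7 cases (85.7%), those 1.5- to 4-fold higher in 9 of 27 (33.3%), those within 1.5-fold in 13 of 21 (61.9%), those 1.5- to 4-fold lower in 5 of 10 and those at least 4-fold lower in 8 of 18 (44.4%). Over all matched genes the shares were 56.2% of those past 4-fold on the higher side and 44.2% on the lower. CTCC, which is GGAG read on the other strand, was found for 3 of the 7 members at least 4-fold higher, for 8 of the 18 at least 4-fold lower and for 38.3% of all matched genes. With the first start of each gene only, 5 of the 7 members at least 4-fold higher and 7 of the 18 at least 4-fold lower held GGAG. Not every match shown for the higher members therefore stood at the first start of its gene. A match is only these letters in the window and not a binding site, and for ARCN1, the 1 of the 7 without a match, the letters were only absent from this window. AP3D1 was not matched.

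COPI, the coat of retrograde carriers from the Golgi, is built from a heptamer whose α and β′ subunits form an outer cage and whose β, γ, δ and ζ subunits resemble a clathrin adaptor. Of 8 members 6 (75%) were higher, against 42.6% of all rows, and 2 (25%) lower, against 34.7%. The median log2 ratio was 1.32. COPA, the α subunit (chromosome 1, 160259063 to 160313190, hg19), had 26.9 FPKM in the CNBP RIP and 3.09 in the input (log2 ratio 2.77). ARCN1, the δ subunit, had 17.7 FPKM in the CNBP RIP and 2.90 in the input (log2 ratio 2.26). These were the COPI genes past 4-fold on the higher side.

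The cage subunit COPB2 (β′) had 19.4 FPKM in the CNBP RIP and 4.94 in the input, and COPB1 (β) had 12.3 FPKM in the CNBP RIP and 4.10 in the input. The alternative γ subunits lay close to each other in ratio. COPG2 had 5.92 FPKM in the CNBP RIP and 1.89 in the input (1.26 on the log2 scale), and COPG1 had 20.2 FPKM in the CNBP RIP and 10.6 in the input (0.87). The remaining subunits ran the other way, and both were past 4-fold. COPE (ε) had 25.3 FPKM in the CNBP RIP and 113 in the input (log2 ratio -2.11). COPZ1 (ζ), the smallest subunit, had 4.30 FPKM in the CNBP RIP and 24.7 in the input (log2 ratio -2.28).

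Levels within COPI differed less in the CNBP RIP, where the highest of the 8 genes was 6.26 times the lowest, than in the input, where it was 59.6 times. COPE was the most abundant of them in the input, and in the CNBP RIP it stood between COPA and COPG1.

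COPII, the coat of carriers that leave the endoplasmic reticulum, has an inner layer of SEC23 and SEC24 and an outer cage of SEC13 and SEC31, on sites marked by the scaffold SEC16A. Its 9 members had a median log2 ratio of 1.07. Of them 5 (55.6%) were higher, against 42.6% of all rows, 1 (11.1%) was lower, against 34.7%, and 3 lay within 1.5-fold. SEC16A (chromosome 9, 139334548 to 139378211, hg19) had 15.2 FPKM in the CNBP RIP and 0.800 in the input (log2 ratio 3.17). The inner coat GTPase activator SEC23A had 5.03 FPKM in the CNBP RIP and 0.400 in the input (2.11), and its paralog SEC23B had 14.9 FPKM in the CNBP RIP and 6.55 in the input (1.07). SEC23B was thus the more abundant of the pair in both libraries and had the smaller ratio.

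The cargo-binding SEC24 paralogs spread more widely. SEC24C had 13.7 FPKM in the CNBP RIP and 3.90 in the input (log2 ratio 1.59). SEC24B had 3.31 FPKM in the CNBP RIP and 0.965 in the input (log2 ratio 1.13). SEC24A stayed below 1 FPKM in both, with 0.748 in the CNBP RIP and 0.463 in the input, where a ratio says little.

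Neither outer cage gene with a row was higher. SEC31A had 0.823 FPKM in the CNBP RIP and 0.921 in the input (log2 ratio -0.08, or 0.39 after rescaling). It thus stayed below 1 FPKM in both, where a ratio says little. Its small partner SEC13, a β-propeller protein that also serves in the nuclear pore, had 4.55 FPKM in the CNBP RIP and 38.0 in the input (log2 ratio -2.81). The accessory protein SEC23IP had 5.22 FPKM in the CNBP RIP and 3.57 in the input (log2 ratio 0.45).

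Clathrin forms its lattice from a heavy chain (CLTC) and light chains (CLTA, CLTB). CLTC (ENSG00000141367.11_2, chromosome 17, 57697050 to 57774317, hg19) had the highest ratio of all members, with 41.2 FPKM in the CNBP RIP and 3.33 in the input. Its log2 ratio of 3.29 was above that of 97.3% of all rows. The light chains were abundant in both libraries. CLTB had 77.9 FPKM in the CNBP RIP and 43.8 in the input (log2 ratio 0.82). CLTA had 15.4 FPKM in the CNBP RIP and 20.6 in the input (log2 ratio -0.39, or 0.52 after rescaling).

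The adaptor complexes bind cargo, and some of them link it to these lattices. Each adaptor complex has a pair of large subunits, a medium (μ) and a small (σ) one. Over the 21 genes of AP-1 to AP-4 the median log2 ratio was 0.20. Of them 9 (42.9%) were higher and 7 (33.3%) lower, close to the 42.6% and 34.7% of all rows. In AP-2, AP-3 and AP-4 the large subunits lay above the others.

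AP-2 acts in endocytosis at the plasma membrane. Its large subunits were higher, with AP2B1 (β2) at 15.7 FPKM in the CNBP RIP and 4.03 in the input (1.73) and AP2A1 at 10.4 FPKM in the CNBP RIP and 6.13 in the input (0.68). The paralogous α subunit AP2A2 followed at 0.61, which turned to -0.32 once the median of genes with a similar locus span was subtracted. AP2M1 (μ2) had 14.9 FPKM in the CNBP RIP and 64.6 in the input (log2 ratio -2.05). AP2S1 (σ2; chromosome 19, 47341393 to 47354249, hg19) had 18.7 FPKM in the CNBP RIP and 254 in the input (log2 ratio -3.69). The 5 AP-2 mRNAs therefore lay within 2.71-fold of each other in the CNBP RIP and within 62.9-fold in the input.

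AP-3 serves traffic to lysosomes and related organelles. AP3D1, the δ subunit (chromosome 19, 2100987 to 2164464, hg19), had 72.2 FPKM in the CNBP RIP and 6.90 in the input (log2 ratio 3.21). AP3B1, the β subunit, had 6.70 FPKM in the CNBP RIP and 1.42 in the input (log2 ratio 1.67). The small subunit AP3S1 lay at the other end of the complex, with 1.27 FPKM in the CNBP RIP and 31.6 in the input (log2 ratio -3.85). AP3M2 had 0.432 FPKM in the CNBP RIP and 1.16 in the input (-0.59). In AP-3 the levels spread more widely in the CNBP RIP, 167-fold from AP3M2 to AP3D1, than in the input, where the spread was 47.0-fold.

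AP-1, which acts at the Golgi and endosomes, was the exception to the order by size. Among large subunits AP1G1 had 4.46 FPKM in the CNBP RIP and 0.597 in the input (1.77), AP1B1 had 28.2 FPKM in the CNBP RIP and 8.10 in the input (1.68), and AP1G2 lay at -0.39, or 0.30 after rescaling. The small subunits parted. AP1S3 had 3.36 FPKM in the CNBP RIP and 0.768 in the input (log2 ratio 1.30). AP1S1, the σ1A subunit and the abundant one in the input, had 10.7 FPKM in the CNBP RIP and 81.2 in the input (log2 ratio -2.81). AP1M2, the epithelial μ subunit, had 7.33 FPKM in the CNBP RIP and 52.2 in the input (-2.67), whereas its widely expressed paralog AP1M1 lay at 0.10.

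AP-4, a Golgi adaptor without clathrin, had low levels throughout. AP4E1 had 1.96 FPKM in the CNBP RIP and 0.164 in the input (1.35), AP4B1 had 1.36 FPKM in the CNBP RIP and 1.05 in the input (0.20), and AP4M1 had 0.635 FPKM in the CNBP RIP and 2.33 in the input (-1.02). No small AP-4 subunit had a row.

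**Figure D2:**
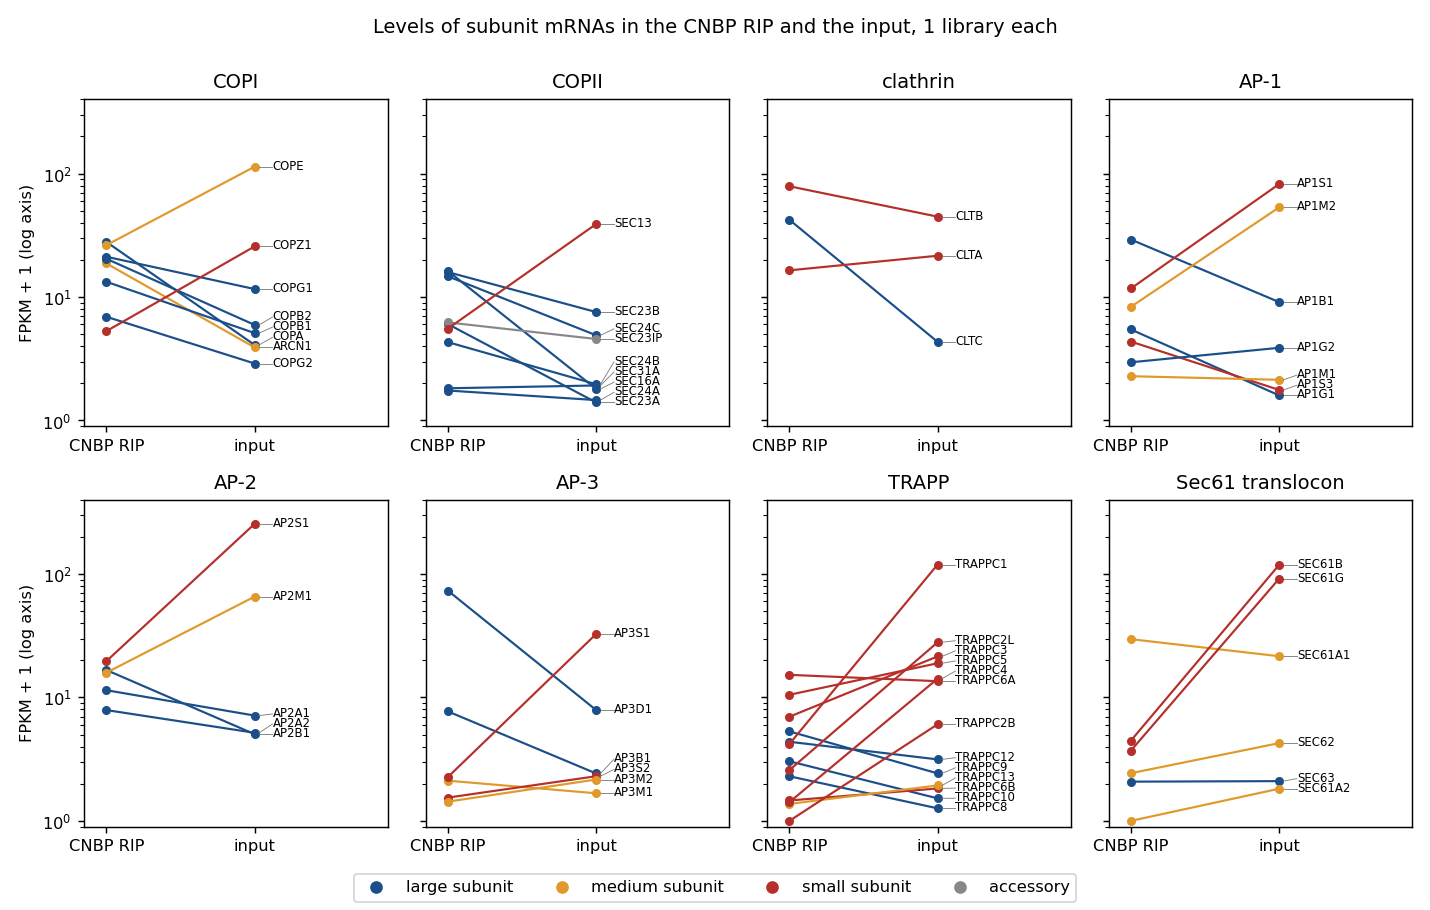
Level of each subunit mRNA (vertical log axis, FPKM plus 1) in the CNBP RIP (left) and the input (right), 1 library each, for 8 complexes. Each line is a gene, coloured by subunit size. Lines of small subunits such as AP2S1, SEC61B and TRAPPC1 lie lower in the CNBP RIP and those of large subunits such as CLTC and AP3D1 higher. Levels draw together in the CNBP RIP for AP-2 (2.71-fold against 62.9-fold in the input) and spread apart for AP-3 (167-fold against 47.0-fold).

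The Sec61 translocon, the channel of the endoplasmic reticulum, had no member that was higher. Of 6 genes 4 (66.7%) were lower, against 34.7% of all rows, and 2 lay within 1.5-fold. The median log2 ratio was -0.84, or -0.43 after rescaling. SEC61B, the β subunit (chromosome 9, 101984346 to 101992897, hg19), had 3.47 FPKM in the CNBP RIP and 117 in the input (log2 ratio -4.73). SEC61G, the γ subunit, had 2.71 FPKM in the CNBP RIP and 90.5 in the input (log2 ratio -4.62). Both are small membrane proteins with a single helix. The channel itself, SEC61A1, was the most abundant of the complex in the CNBP RIP with 28.6 FPKM, against 20.6 in the input (0.46). The accessory membrane proteins SEC62 and SEC63 were low, with SEC62 at 1.43 FPKM in the CNBP RIP and 3.26 in the input (-0.81) and SEC63 at 1.08 FPKM in the CNBP RIP and 1.10 in the input (-0.01, or 0.50 after rescaling). SEC61A2 was listed at 0 in the CNBP RIP.

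The catalytic subunits of signal peptidase, which cuts the signal sequence from proteins in the channel, were both lower. SEC11C had 3.36 FPKM in the CNBP RIP and 22.6 in the input (-2.44), and SEC11A had 2.57 FPKM in the CNBP RIP and 20.2 in the input (-2.57). The paralogs thus had nearly the same ratio as formed. Among the remaining SEC names, SEC22A, of a SNARE family, had 1.15 FPKM in the CNBP RIP and 1.24 in the input (-0.06, or 0.48 after rescaling). Its relative SEC22C had 0.633 FPKM in the CNBP RIP and 1.89 in the input (-0.82). The lipid-binding SEC14-like proteins did not move together. SEC14L1 had 2.22 FPKM in the CNBP RIP and 0.388 in the input (1.22), SEC14L4 had 2.42 FPKM in the CNBP RIP and 0.873 in the input (0.87), and SEC14L2 had 0.741 FPKM in the CNBP RIP and 2.67 in the input (-1.08).

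TRAPP tethers vesicles at the Golgi and activates Rab GTPases through a core of small subunits, to which larger ones add in each form of the complex. The 13 members had a median log2 ratio of -0.50, which was 0.05 after rescaling, when the median of all rows was 0.85. The large subunits led, with TRAPPC9 at 4.31 FPKM in the CNBP RIP and 1.42 in the input (1.13) and TRAPPC10 at 2.04 FPKM in the CNBP RIP and 0.522 in the input (1.00). TRAPPC8 followed at 0.86 and TRAPPC12 at 0.48.

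Of the 8 small TRAPP subunits 4 were at least 4-fold lower, against 13.5% of all rows. TRAPPC1 (chromosome 17, 7833663 to 7835441, hg19) had 3.19 FPKM in the CNBP RIP and 118 in the input, and its log2 ratio of -4.83 was the lowest of all members. TRAPPC2L had 1.58 FPKM in the CNBP RIP and 27.0 in the input (-3.44), and TRAPPC4 had 0.418 FPKM in the CNBP RIP and 13.2 in the input (-3.32). TRAPPC2B, listed at 0 in the CNBP RIP, is a near-identical copy of TRAPPC2, so its value is uncertain. The TRAPPC6 paralogs lay within 1.5-fold. TRAPPC6A had 14.2 FPKM in the CNBP RIP and 12.5 in the input (log2 ratio 0.17), and TRAPPC6B had 0.462 FPKM in the CNBP RIP and 0.830 in the input (-0.32, or 0.049 after rescaling). All 4 large subunits lay above all 8 small ones as the ratios were formed, narrowly so for TRAPPC12 and TRAPPC6A. Once the median of genes with a similar span was subtracted this was lost, since TRAPPC6A at 0.34 lay above all 4 large subunits, TRAPPC9 at 0.14 among them.

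HOPS and CORVET are tethers of late and of early endosomes with a shared core, and all of their subunits are large. Of the 8 members grouped here 5 (62.5%) were higher, against 42.6% of all rows, and 2 (25%) lower, against 34.7%. The median log2 ratio was 1.08. This group took in VPS33B, a paralog of VPS33A that is not a subunit of either tether in human cells. VPS33B lay at -0.45, or 0.31 after rescaling. VPS41, a HOPS subunit, had 10.6 FPKM in the CNBP RIP and 0.627 in the input (log2 ratio 2.83). VPS18, of the shared core, had 14.2 FPKM in the CNBP RIP and 3.28 in the input (1.83). VPS39 lay at 1.80, VPS16 at 1.40 and VPS8 at 0.77, and the last of these was -0.22 after the median of genes with a similar span was subtracted. VPS11, also of the shared core, had 0.340 FPKM in the CNBP RIP and 1.72 in the input (-1.02), and VPS33A was listed at 0 in the CNBP RIP. VPS11 and VPS33A were the large subunits among all members that were lower, so the tether had members of either direction.

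GARP and EARP, tethers of endosome-derived vesicles, share VPS51, VPS52 and VPS53, and VPS54 is particular to GARP. VPS54 had 4.19 FPKM in the CNBP RIP and 0.467 in the input (1.82), and VPS52 had 11.8 FPKM in the CNBP RIP and 4.20 in the input (1.30). VPS53 had 2.05 FPKM in the CNBP RIP and 0.265 in the input (1.27), and VPS51 had 25.4 FPKM in the CNBP RIP and 17.7 in the input (0.49). All 4 were above 0, and the median log2 ratio was 1.28.

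The VPS13 proteins, very large bridges that carry lipids between membranes, had a median of 1.75. All 4 were higher, against 42.6% of all rows, and all had very low levels in the input. VPS13D had 6.14 FPKM in the CNBP RIP and 0.108 in the input (log2 ratio 2.69). VPS13B had 2.63 FPKM in the CNBP RIP and 0.0462 in the input (1.79), VPS13C had 2.32 FPKM in the CNBP RIP and 0.0250 in the input (1.70), and VPS13A had 0.993 FPKM in the CNBP RIP and 0.0298 in the input (0.95). At such input levels the ratio is set largely by the pseudocount, and the group's median was 4.25 with a pseudocount of 0.1 and 0.57 with 5. After the median of genes with a similar span was subtracted it was 0.75, against 0.83 for clathrin and 0.75 for COPI.

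The ESCRT members carried VPS names of ESCRT-I and ESCRT-II. Their median was -0.21, or 0.42 after rescaling, and the small subunits stood apart. VPS28, of ESCRT-I, had 1.28 FPKM in the CNBP RIP and 27.9 in the input (-3.66), and VPS25, of ESCRT-II, had 1.13 FPKM in the CNBP RIP and 20.5 in the input (-3.33). The VPS37 paralogs of ESCRT-I spread around 0. VPS37C had 6.47 FPKM in the CNBP RIP and 2.29 in the input (1.18), VPS37B had 9.45 FPKM in the CNBP RIP and 6.38 in the input (0.50), VPS37D lay at -0.21 (0.42 after rescaling) and VPS37A was listed at 0 in the CNBP RIP. The ATPases that take ESCRT-III apart differed in direction as deposited, with VPS4B at 2.44 FPKM in the CNBP RIP and 0.914 in the input (0.84) and VPS4A at 9.12 FPKM in the CNBP RIP and 18.9 in the input (-0.97).

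Retromer is a trimer of VPS35, VPS26 and VPS29. Its median log2 ratio was -0.26, or 0.42 after rescaling. VPS26B had 6.38 FPKM in the CNBP RIP and 2.29 in the input (1.17), and its paralog VPS26A had 1.28 FPKM in the CNBP RIP and 2.59 in the input (-0.65). The scaffold VPS35 had 3.19 FPKM in the CNBP RIP and 2.80 in the input (0.14). VPS29, the small subunit, was the member past 4-fold, with 4.18 FPKM in the CNBP RIP and 27.8 in the input (-2.48). The other VPS names belong to none of these complexes. VPS72 had 7.49 FPKM in the CNBP RIP and 5.76 in the input (0.33), VPS9D1 had 0.643 FPKM in the CNBP RIP and 0.867 in the input (-0.18, or 0.24 after rescaling), and the membrane fusion regulator VPS45 had 0.390 FPKM in the CNBP RIP and 1.73 in the input (-0.97).

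Large and small subunits were then set against each other. The classes were assigned by hand from the known build of each complex and not from a measured length, with earlier results of these data known. Protein lengths were not checked, so a class need not hold proteins of like size across complexes. The contrast below rests on these choices. Of 45 large subunits 34 (75.6%) were higher, against 42.6% of all rows, and 2 (4.44%) were lower, against 34.7%. Their median log2 ratio was 1.27. Of 22 small subunits 2 (9.09%) were higher, against 42.6% of all rows, and 16 (72.7%) were lower, against 34.7%. Their median was -2.70. The 2 small subunits that were higher were AP1S3 and CLTB. The 19 medium subunits lay between, with 3 (15.8%) higher, 9 (47.4%) lower and a median of -0.50. The 13 members not classed by size had a median of -0.18.

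These differences went with opposite starting levels, but the input is also part of the ratio. The median level of large subunits was 4.46 FPKM in the CNBP RIP and 1.72 in the input, and that of small subunits was 3.41 FPKM in the CNBP RIP and 25.8 in the input. In the CNBP RIP the classes thus had similar median levels, and in the input they did not. Large subunits held 0.415% of the summed FPKM in the CNBP RIP and 0.0600% in the input, and small subunits 0.169% in the CNBP RIP and 0.464% in the input.

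The same order was seen inside the complexes. In 9 complexes with members of both classes, the median of the large subunits exceeded that of the small ones in 9. The differences ran from 2.44 in AP-1 to 4.66 in the Sec61 translocon on the log2 scale. In the Sec61 translocon the large class was SEC63 alone, an accessory protein and not part of the channel, at -0.01 (0.50 after rescaling). In 8 of the 9 every large subunit lay above every small one as the ratios were formed, and in 7 after subtraction for span or for exonic length, when TRAPP was lost. AP-1 was the exception throughout, since AP1S3 at 1.30 lay above AP1G2 at -0.39. Most complexes had only 1 or 2 small subunits, so a median there rests on few genes. When the medium subunits were counted with the small ones, the difference in the Sec61 translocon was 0.85, since SEC61A1, SEC61A2 and SEC62 then counted with SEC61B and SEC61G, and that in retromer was 0.79.

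**Figure D3:**
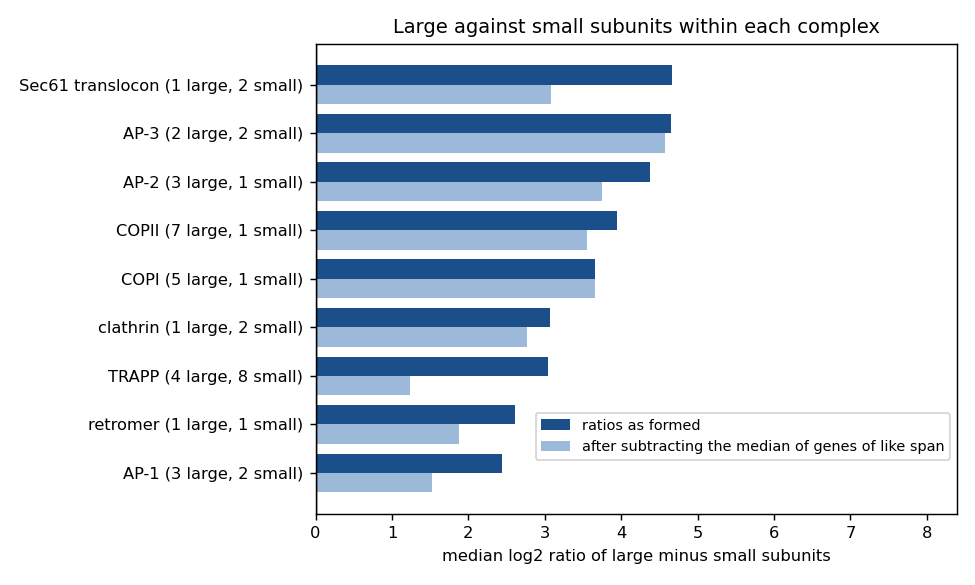
Difference on the log2 scale between the median ratio of large and of small subunits (horizontal axis) in 9 complexes, with the number of each. Dark bars use the ratios as formed and light bars the ratios after the median of all genes of like locus span was subtracted. All bars lie above 0, from 2.44 to 4.66 as formed and from 1.24 to 4.57 after subtraction.

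Large subunits come from long genes, and over the whole table the ratio went with length. In 20 bins of locus span, the distance from start to end of a gene, the median log2 ratio of all rows ran from -1.45 in the shortest bin (median span 2.37 kb) to 1.06 in a bin of long genes (124 kb). Spearman's rho between ratio and span was 0.37 across all 10836 rows and 0.60 across the 99 members. Genes are not independent replicates, and all points share the same pair of libraries. The median span was 79.0 kb for large and 11.9 kb for small subunits. With the input level the rho was -0.61 across all rows and -0.55 across members, but the input is also part of the ratio.

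To set each member beside genes of its own length, the median ratio of its span bin was subtracted. The median was then 0.67 for large and -2.26 for small subunits, a gap of 2.92 on the log2 scale against 3.97 before. At 1.5-fold 23 of 45 large subunits were then higher and 4 lower. Of 22 small subunits 1 was then higher and 17 lower. Of all 10836 rows 3783 were higher and 3794 lower after this step. The large minus small difference stayed above 0 in all 9 complexes, from 1.24 in TRAPP to 4.57 in AP-3. All 8 members at least 4-fold higher stayed above 0 and all 19 at least 4-fold lower stayed below it. Exonic length, recovered from the decimals of the FPKM for 97 members, gave 0.76 for large and -2.33 for small subunits. The part of transcript length and of coverage along transcripts in these ratios was not tested further.

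Pairs that break the relation with span are easy to see. AP3S1 spans 72.6 kb and yet had a log2 ratio of -3.85, and COPZ1 spans 50.6 kb with -2.28. VPS18 spans 9.55 kb and had 1.83. CLTA, with a span of 114 kb, lay at -0.39 and its paralog CLTB, with 24.1 kb, at 0.82.

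**Figure D4:**
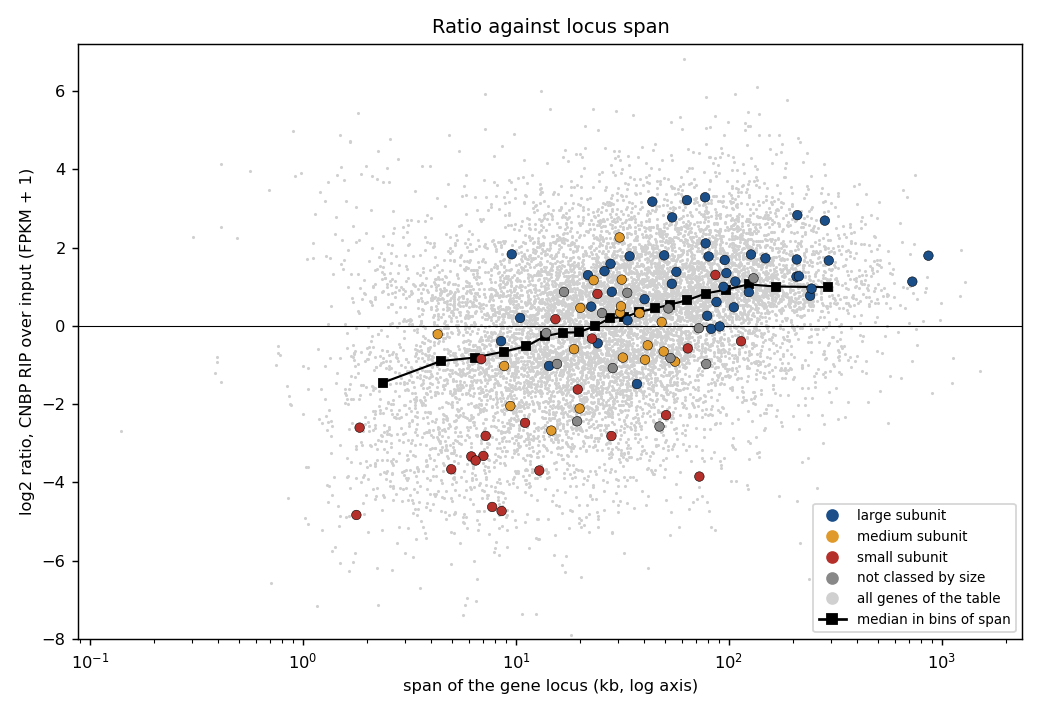
Log2 ratio of the CNBP RIP over the input (vertical axis) against the span of the gene locus (kb, log axis) for all 10836 rows in grey and the 99 members in colour by subunit size. Black squares give the median of all rows in 20 bins of span, from -1.45 to 1.06. Most small subunits lie below the line of medians, AP3S1 among them at 72.6 kb, and most large subunits lie above it.

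The spread of subunit mRNA levels within a complex was then set against that of the table. Of 12 complexes with at least 4 members above 0 in both libraries, the ratio of the highest to the lowest level was smaller in the CNBP RIP in 9. In TRAPP it was 38.3 in the CNBP RIP and 449 in the input, and in AP-1 it was 22.0 in the CNBP RIP and 136 in the input. COPII had a ratio of 20.4 in the CNBP RIP and 95.1 in the input, and the Sec61 translocon 26.6 in the CNBP RIP and 107 in the input. The exceptions were AP-3, HOPS with CORVET (63.9 in the CNBP RIP and 25.0 in the input) and the VPS13 proteins (6.18 in the CNBP RIP and 4.33 in the input). The narrower spread was a property of the table as well. The SD of log2(FPKM + 1) across genes above 0 in both libraries was 1.42 in the CNBP RIP and 1.93 in the input for members, and 1.52 in the CNBP RIP and 2.0 in the input for all rows. Leaving out genes at 0 acts on the CNBP RIP, where 4 members and 1050 rows were listed at 0, more than on the input, where no member and 181 rows were. With all genes kept the SD was 1.47 in the CNBP RIP and 1.9 in the input for members and 1.62 in the CNBP RIP and 1.96 in the input for all rows, and it was smaller in the CNBP RIP in 9 of the 12 complexes.

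Paralogs were compared next. Some of them can replace each other in a complex, but others, such as the SEC14-like, VPS13, SEC22 and VPS33 families, are relatives and not alternative subunits of 1 complex. Among 20 families with at least 2 members, the highest and lowest lay on opposite sides of 0 in 11 and differed by at least 1 on the log2 scale in 14, with a median difference of 1.33. Of all 10836 rows 6025 lay above 0 and 4811 below it, so that members on opposite sides say nothing particular to paralogs. The quartiles of all rows lay at -1.05 and 1.25, so a gap of 1 is not particular to paralogs either. Gaps between unrelated genes were not compared. The widest gaps were in the small adaptor subunits, 4.11 between AP1S3 and AP1S1 and 3.27 between AP3S2 and AP3S1, followed by 2.77 between AP1M1 and AP1M2. In these pairs the paralog with the higher input level had the lower ratio, but the input is also part of the ratio. Other families went the other way, as CLTB, SEC61A1 and VPS33B had both the higher input level and the higher ratio. The narrowest gaps were 0.072 between AP2A1 and AP2A2 and 0.13 between SEC11C and SEC11A. Gene span moves these gaps. After the median of genes with a similar span was subtracted they were 2.48 for AP1S3 and AP1S1, 3.44 for AP3S2 and AP3S1, 2.06 for AP1M1 and AP1M2, 0.64 for AP2A1 and AP2A2 and 0.74 for SEC11C and SEC11A. Reads shared between near-identical paralogs can blur such gaps, and the sources used here do not give how the authors assigned them.

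Of the 99 loci 39 overlapped that of another row, 33 on the opposite strand and 9 on the same strand, some on both. The labels name a stranded kit, but no source used here tells whether quantification used strand. AP3D1 overlaps DOT1L, COPA overlaps NCSTN, CLTC overlaps PTRH2 and TRAPPC1 overlaps CNTROB, each on the opposite strand. SEC16A, VPS41, VPS13D, SEC23A, SEC61B, SEC61G and AP2S1 overlap no other row.

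The other genes of these pathways were taken from a list of 138 names, of which 132 had a row (134 rows). At 1.5-fold 50 rows (37.3%) were higher in the CNBP RIP, against 42.6% of all rows, and 56 (41.8%) lower, against 34.7%. At 4-fold 18 (13.4%) were higher, against 12.5% of all rows, and 22 (16.4%) lower, against 13.5%, with a median log2 ratio of -0.03, or 0.64 after rescaling. By role the medians ran from 0.95 to -1.46.

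Among the accessory proteins of clathrin coats, 14 of 17 (82.4%) were higher, against 42.6% of all rows, and 1 (5.88%) lower, against 34.7%. Their median was 0.95, and it was 0.13 after the median of genes with a similar span was subtracted. The actin linkers of clathrin coats led, with HIP1R at 37.6 FPKM in the CNBP RIP and 3.49 in the input (3.10) and HIP1 at 7.24 FPKM in the CNBP RIP and 0.268 in the input (2.70). EPS15L1 had 0.686 FPKM in the CNBP RIP and 2.0 in the input (-0.83), and PICALM had 1.28 FPKM in the CNBP RIP and 1.53 in the input (-0.15, or 0.42 after rescaling). Most of these genes were thus higher as the ratios were formed. After the subtraction for span 7 of 17 were at least 1.5-fold higher and 2 lower, whereas CLTC lay at 2.46.

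The long coiled-coil golgins with the COG and exocyst tethers had a median of 0.85 that was 0.20 after the median of genes with a similar span was subtracted. Of 25 rows 18 (72.0%) were higher, against 42.6% of all rows, and 2 (8%) lower, against 34.7%. GOLGA3 had 49.6 FPKM in the CNBP RIP and 0.551 in the input (log2 ratio 5.03), and GOLGA4 had 16.9 FPKM in the CNBP RIP and 0.382 in the input (3.70). Both ratios were above that of every member of the coat and tether list. COG8 had 2 rows of opposite direction, at 2.05 and, listed at 0 in the CNBP RIP, at 8.16 FPKM in the input, and COG7 had 0.616 FPKM in the CNBP RIP and 2.14 in the input (-0.96).

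At the other end were the genes of signal recognition, translocation and signal processing that the name rule did not take. None of 16 was higher, against 42.6% of all rows, and 12 (75%) were lower, against 34.7%. Their median was -1.46, or -0.59 after rescaling. SSR4, a translocon-associated protein, had 2.59 FPKM in the CNBP RIP and 58.1 in the input (-4.04), and SRP14, of the signal recognition particle, had 12.2 FPKM in the CNBP RIP and 173 in the input (-3.72). The larger SRPRA, the receptor's α subunit, had 10.1 FPKM in the CNBP RIP and 8.32 in the input (0.25), and SRP68 had 16.1 FPKM in the CNBP RIP and 15.3 in the input (0.07). This group and the Sec61 members therefore lay on the same side.

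The SNAREs, which fuse vesicles, had a median of -1.14, or -0.78 after rescaling. Of their 22 rows 4 (18.2%) were higher, against 42.6% of all rows, and 14 (63.6%) lower, against 34.7%. YKT6 had 68.7 FPKM in the CNBP RIP and 15.6 in the input (2.07), and STX16 had 4.34 FPKM in the CNBP RIP and 0.550 in the input (1.79). USE1 had 1.10 FPKM in the CNBP RIP and 13.7 in the input (-2.81), and SNAP29 had 0.547 FPKM in the CNBP RIP and 9.17 in the input (-2.72). Of 6 sorting nexins, the partners of retromer, 1 (16.7%) was higher, against 42.6% of all rows, and 3 (50%) lower, against 34.7%. Their median was -1.07, or -0.32 after rescaling. SNX27 had 3.95 FPKM in the CNBP RIP and 0.487 in the input (1.74), and SNX1 had 4.19 FPKM in the CNBP RIP and 4.71 in the input (-0.14, or 0.65 after rescaling). SNX3 had 1.47 FPKM in the CNBP RIP and 30.3 in the input (-3.66), and SNX2 had 0.641 FPKM in the CNBP RIP and 9.10 in the input (-2.62).

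Of 17 cargo receptors of the p24 and lectin families 4 (23.5%) were higher, against 42.6% of all rows, and 11 (64.7%) lower, against 34.7%. Their median was -0.87, or -0.18 after rescaling. TMED8 had 2.90 FPKM in the CNBP RIP and 0.0609 in the input (1.88), and LMAN1 had 5.60 FPKM in the CNBP RIP and 1.89 in the input (1.19). KDELR2, a receptor that retrieves resident proteins, had 1.35 FPKM in the CNBP RIP and 23.2 in the input (-3.36), and LMAN2L was listed at 0 in the CNBP RIP with 7.75 FPKM in the input. The ARF and SAR1 GTPases and their regulators start coat assembly. Of these 14, 6 (42.9%) were higher, close to the 42.6% of all rows, and 7 (50%) were lower, against 34.7%. Their median was -0.14, or 0.58 after rescaling. ARF6 had 73.0 FPKM in the CNBP RIP and 3.34 in the input (4.09), and the large exchange factor ARFGEF2 had 6.16 FPKM in the CNBP RIP and 0.162 in the input (2.62). ARF5 had 15.4 FPKM in the CNBP RIP and 135 in the input (-3.05), and ARF4 had 2.78 FPKM in the CNBP RIP and 16.3 in the input (-2.19).

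Of 17 ESCRT partners without a VPS name 3 (17.6%) were higher, against 42.6% of all rows, and 6 (35.3%) lower, close to the 34.7% of all rows. Their median was -0.29, or 0.49 after rescaling. CHMP7 had 32.4 FPKM in the CNBP RIP and 5.88 in the input (2.28), and HGS, of the receptor-binding ESCRT-0, had 25.1 FPKM in the CNBP RIP and 13.2 in the input (0.88). TSG101, the partner of VPS28 and VPS37 in ESCRT-I, was listed at 0 in the CNBP RIP with 12.3 FPKM in the input, and CHMP2B likewise with 3.72 FPKM in the input.

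**Figure D5:**
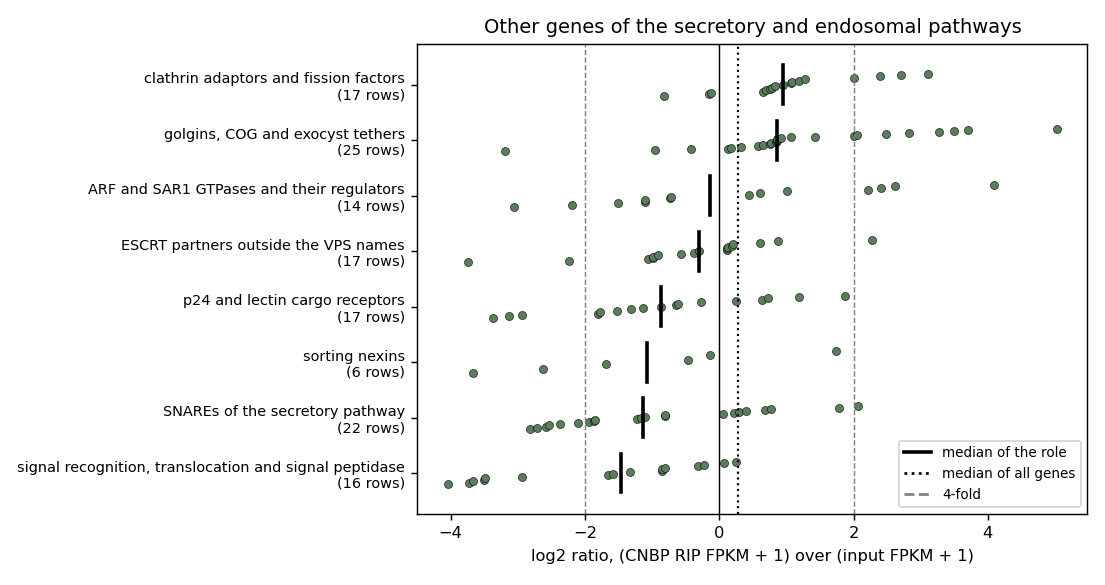
Log2 ratio of the CNBP RIP over the input (horizontal axis) for 134 rows of pathway genes that the name rule did not take, by role, 1 point per row. Bars mark the median of a role, which ran from 0.95 for clathrin adaptors and fission factors to -1.46 for signal recognition, translocation and signal peptidase, the dotted line the median of all rows (0.28) and dashed lines 4-fold.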

How the data were processed

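RNA of 1 CNBP RIP and 1 input library from HCT116 cells was analysed. The authors deposited FPKM per gene, and the depth behind them is unknown. Per the submitters' processing notes the tools were FastQC, cutadapt, HISAT2 and StringTie and the build was hg19, and their versions, parameters and annotation are not given in the sources used here. FPKM divides by transcript length, so uneven coverage makes levels vary with length.

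Ratios were formed in Python 3.11.15 (numpy 2.4.6, pandas 2.3.3, scipy 1.17.1, matplotlib 3.10.9) as the difference of log2(FPKM + 1), on FPKM as deposited. With 1 library per group no test was run, and genes were counted at log2 ratios of 2 and 0.58. Members, complexes, size classes and the pathway list were set with earlier results of these data known. Levels are given for every COPI, COPII, clathrin and Sec61 member, for the 2 highest and 2 lowest ratios of every other complex and every pathway role, for members listed at 0 in 1 library, and for the 10 highest and 10 lowest members with a level above 0 in both libraries and a mean of 1 FPKM or more. Genes of like span were those of 1 of 20 bins. Exonic length was the smallest whole number from 201 to 25000 that made FPKM times length a value with 6 decimals in both libraries, which may only divide the true one, and it was found for 88.7% of rows. Both steps were tested on simulated data. Motifs were searched in RefSeq promoters of GRCh38.p14, whose coordinates are not those of hg19.

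Alternatives were other pseudocounts, rescaling, centring, filters on low FPKM, and subtraction of the median of genes of like span or exonic length.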

Additional observations from a re-analysis of the deposited data

How the results depend on the processing

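The limits are those of 1 library per group and of values without depth. No paired analysis was possible because each group had 1 library, and what the number in both titles marks is not explained in the labels. The ratio of low genes depends on the pseudocount, and the sign of values near 0 on the scale of the libraries. Size classes were set by hand. Comparison by protein length, planned in the form of bins and of classes by residues, was not run, because no table of proteins was used here. Subtraction of the median of genes of like exonic length and counting of medium with small subunits were chosen after seeing the data. The cause of the changes below was not tested.

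Centring subtracts the median of all rows, 0.28, from every ratio. It therefore leaves differences unchanged and cannot move a median beyond 1.5-fold. Of the 34 summary values only the counts of members could move, and none did beyond 1.5-fold. Centring turned the median of AP-1 to -0.19 and that of AP-4 to -0.080. Other medians near 0 that turned sign were 0.34 in AP-3, 0.077 for the SEC22 family, 0.049 in TRAPP and 0.24 for the other VPS genes after rescaling, 0.14 for the VPS4 ATPases with a pseudocount of 0.1, 0.023 for them with 0.5, and, with at least 1 FPKM in both libraries, -0.39 in AP-1, 0.054 in ESCRT and 0.33 for the other VPS genes. With a pseudocount of 0.1, 19 members were at least 4-fold higher (8 with a pseudocount of 1), the median log2 ratio was 2.01 in GARP and EARP, -2.17 in the Sec61 translocon and 4.25 in the VPS13 proteins, and the large minus small difference was 4.75 over all members (3.97 with a pseudocount of 1), 5.59 in AP-3, 4.71 in COPII and 4.54 in TRAPP. With 0.5 these were 13 members, a median of 2.47 in the VPS13 proteins and a difference of 3.86 in TRAPP.

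With a pseudocount of 5, 2 members passed 4-fold on the higher side, 11 on the lower, and 27 were 1.5-fold higher. The medians were 0.48 in COPII, 0.59 in GARP and EARP, 0.47 in HOPS and CORVET, 0.57 in the VPS13 proteins and -1.73 for signal peptidase. The difference was 2.39 over all members, 1.72 in AP-1, 3.15 in AP-3, 2.60 in COPI, 2.96 in COPII, 3.74 in the Sec61 translocon, 1.42 in TRAPP, 2.25 in clathrin and 1.91 in retromer.

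After rescaling to the mean sum, 23 members passed 4-fold on the higher side and 10 on the lower. The median was 0.92 over members, 1.43 in AP-2, 2.11 in COPI, 1.77 in COPII, 0.42 in ESCRT, 1.94 in GARP and EARP, 1.74 in HOPS and CORVET, 1.46 for the SEC14-like proteins, 0.68 for the VPS4 ATPases, 1.77 in clathrin, 0.42 in retromer and -1.68 for signal peptidase. TRAPPC5 turned to 0.049.

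After subtraction of the median of genes of like span, the median over members turned to -0.038 and that of the other VPS genes to 0.079, and the medians were -0.32 in AP-2, which turned sign, 0.21 in COPII, 0.63 in GARP and EARP, 0.49 in HOPS and CORVET, 0.16 for the SEC14-like proteins, -1.12 for the SEC22 family and 0.75 in the VPS13 proteins. The difference was 2.92 over all members, 1.52 in AP-1, 3.75 in AP-2, 3.08 in the Sec61 translocon, 1.24 in TRAPP and 1.87 in retromer. Single values turned to -0.32 for AP2A2, -0.20 for TRAPPC8, -0.038 for VPS13A and -0.22 for VPS8.

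With exonic length in place of span, the median over members turned to -0.099, and the medians were -1.16 in AP-1, 0.56 in AP-3, -0.22 in AP-4, 0.22 for the VPS4 ATPases, 0.33 for the other VPS genes, -0.99 in ESCRT, 0.16 in HOPS and CORVET, 0.064 for the SEC14-like proteins, -1.27 in TRAPP and 1.47 in clathrin. The difference was 3.10 over all members, 1.08 in AP-1, 3.65 in AP-2, 2.83 in the Sec61 translocon, 1.79 in TRAPP, 1.13 in clathrin and 1.36 in retromer. AP3M2 turned to 0.063, TRAPPC10 to -0.39, VPS53 to -0.12 and VPS8 to -0.38.

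Among members whose mean FPKM reached 1, the medians were 1.67 in AP-3 and -1.24 in TRAPP, and the difference in AP-3 was 6.29. With at least 1 FPKM in both libraries 4 members passed 4-fold and 22 passed 1.5-fold on the higher side, the medians were 1.67 in AP-3 and -0.97 for the VPS4 ATPases, and the differences were 3.46 in AP-1, 6.29 in AP-3 and 2.43 in TRAPP. With medium counted with small subunits the difference was 2.13 over all members, 3.55 in AP-2, 3.03 in AP-3, 0.85 in the Sec61 translocon and 0.79 in retromer.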
